A study of Mus musculus with 14 samples.

Results

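The proteasome is the protease that degrades proteins tagged with ubiquitin. Its 20S core is a barrel of alpha rings, which gate the entry, around beta rings, which hold the cutting sites. The 19S cap on the end of the barrel carries a ring of ATPases that unfold substrates, and non-ATPase subunits that bind and remove ubiquitin. In immune cells interferon can bring in 3 replacement catalytic subunits, the immunoproteasome genes Psmb8, Psmb9 and Psmb10, which help to make peptides for antigen presentation. Microglia are the resident macrophages of the retina and brain.

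The genes described here were those of the deposited gene table whose symbols begin with Psma, Psmb, Psmc or Psmd followed by a number, without the 3 immunoproteasome genes. This gave 36 of 35735 genes: 8 of the 20S alpha type, 8 of the 20S beta type, 6 of the 19S ATPases, 11 of the 19S non-ATPase subunits, and 3 with Psmd names, Psmd5, Psmd9 and Psmd10, that are chaperones of cap assembly and not subunits. They were measured in microglia sorted from single retinas of mice aged 12 weeks, in 4 groups: APOE E4/E4 mice given a microbead injection (APOE4 microbead, n = 3), APOE E3/E3 mice given microbeads (APOE3 microbead, n = 3), APOE E4/E4 mice given a sham injection (APOE4 sham, n = 4), and APOE E3/E3 mice given a sham injection (APOE3 sham, n = 4). Microbeads block the drainage of fluid from the eye and raise its pressure, as a model of glaucoma. APOE3 and APOE4 are variants of human apolipoprotein E, a lipid carrier, and every mouse was homozygous for 1 of them. How the alleles were introduced is not given in the sources used here. All cells were sorted as CD11b+, Ly6c- and Fcrls+, with 100 to 600 cells per retina. Nothing in the labels says whether retinas came from separate mice, so the p-values below measure only the spread between these samples.

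The libraries held 453429 to 730134 estimated reads, of which 6 genes that each took over 2% of a library's reads held 35.3% to 60.0%. The 36 proteasome genes together had 601 to 1549 reads in a library, so most single genes rest on few reads and small differences were not detectable at this depth. The microglial label was checked on 10 markers, all of which had reads and passed the filter on low counts. Their summed level was 13743 to 16143 CPM (reads per gene after TMM scaling of the libraries) in APOE4 microbead, 6513 to 11332 in APOE3 microbead, 13744 to 16655 in APOE4 sham and 13839 to 18712 in APOE3 sham. Of 13 monocyte markers all had a read somewhere and 1 passed the filter. Their summed level was 54.3, 214 and 77.8 CPM in the APOE4 microbead libraries, 1512, 767 and 282 CPM in the APOE3 microbead libraries, 49.8 to 66.4 CPM in APOE4 sham and 66.98 to 80.8 CPM in APOE3 sham. The APOE3 microbead libraries were thus low in microglial and high in monocyte markers, although Ly6c+ cells had been sorted out. They also stood apart on the first principal component of all genes (17.1% of the variance), at 49.9, 33.9 and 19.1, against -2.75 to 7.96 for APOE4 microbead and -19 to -8.16 for all sham libraries. The part of these other cells in the proteasome values was not tested. Leaving out the 2 libraries with the highest monocyte markers, APOE3 microbead 1 and 2, leaves only APOE3 microbead 3 in its group. That setting therefore cannot tell cell content from the loss of replicates. In RNA from a pool of cells, fewer cells of a type and less RNA per cell cannot be told apart.

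Levels per transcript length, in TPM (reads scaled by transcript length and by the library's total), separated ubiquitous subunits from tissue-restricted ones. Over the 14 libraries the highest means were those of the alpha ring subunit Psma7 at 35.2 TPM, the alpha subunit Psma3 at 32.3 TPM and Psmb6, the beta subunit with caspase-like activity, at 27.6 TPM. The lowest was that of Psmb11 at 0.518 TPM, a catalytic subunit known from the cortex of the thymus. Next lowest was Psma8 at 1.23 TPM, an alpha subunit known from testis. These had 60 and 17 reads in all, and with the chaperone Psmd10 (88 reads, 3.02 TPM) they did not pass the filter on low counts, which left 33 of the 36 genes for testing. The remaining genes spanned a range from 3.12 TPM for the chaperone Psmd5 up to Psma7.

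The parts of the machine differed in their levels per length. The median of the gene means was 13.2 TPM for the 20S alpha and 14.6 TPM for the 20S beta genes, 9.55 TPM for the 19S ATPases, 7.43 TPM for the 19S non-ATPase subunits and 3.12 TPM for the chaperones. Among the ATPases, Psmc2 was the highest at 13.5 TPM and Psmc1 the lowest at 6.24 TPM. Among the non-ATPase subunits, Psmd8, of the lid of the cap, was the highest at 12.6 TPM and Psmd3, also of the lid, the lowest at 5.93 TPM. The catalytic subunits were unequal too: Psmb5, with chymotrypsin-like activity, averaged 14.1 ± 7.46 TPM and Psmb7, with trypsin-like activity, 4.37 ± 2.98 TPM (SD, n = 14 libraries), against 27.6 ± 12.3 TPM for Psmb6. In most neighbouring pairs of this order the means differ by less than the spread over libraries, and part of that spread is the changing share of the 6 abundant genes, which moves all TPM values of a library together.

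**Figure D1:**
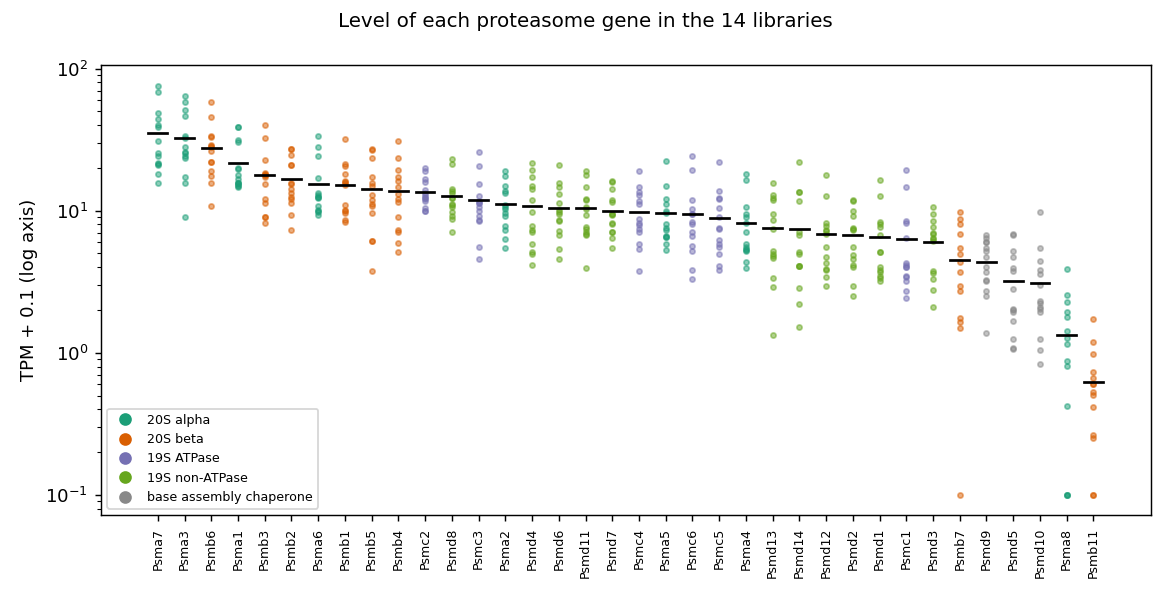
TPM of each of the 36 proteasome genes (log axis, 0.1 added) in each of the 14 libraries (points), with the mean over libraries as a black bar and genes ordered by that mean. Psma7, Psma3 and Psmb6 have the highest means, and Psmb11 and Psma8 the lowest.

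Some of the reads behind these levels lay on transcripts that the annotation does not class as protein-coding. The median gene among the 33 had 88.4% of its reads on protein-coding transcripts, 15 had over 90% and 5 had under 65%. The lowest was Psmc2, with 38.8% on protein-coding and 61.2% on retained-intron transcripts. Psma7 had 60.6% on protein-coding and 38.8% on retained-intron transcripts. Psma3, with the next highest mean TPM, had 42.7% on protein-coding and 43.5% on retained-intron transcripts. For Psmb1 the protein-coding share was 95.6%. Psmb5, Psmb6 and Psmb7 have pseudogenes in the annotation, with which near-identical reads can be shared.

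Promoter sequence was available in the RefSeq table (GRCm38.p6) for 29 of the 36 genes. The 250 bases before the start are printed for 5 of the genes compared below, each with a match to a motif marked here: Psma7, Psmb3, the catalytic Psmb5 and Psmb6, and Psmd2, a scaffold of the cap that binds shuttle factors. They do not stand for all genes compared. Psma4, which has a promoter window but no match to these motifs, and Psmb1 are not printed. Capitals mark matches, on either strand, to the CCAAT box (CCAAT, Psma7 and Psmb3), to the core of the antioxidant response element, read by the factors Nrf1 and Nrf2 (TGACNNNGC, Psmb5 and Psmb6), and to an Ets site (CCGGAAG, Psmd2, where it lies on the other strand). All are written 5′ to 3′ along the gene's strand.
Psma7, chr2:180042465-180042714, minus strand: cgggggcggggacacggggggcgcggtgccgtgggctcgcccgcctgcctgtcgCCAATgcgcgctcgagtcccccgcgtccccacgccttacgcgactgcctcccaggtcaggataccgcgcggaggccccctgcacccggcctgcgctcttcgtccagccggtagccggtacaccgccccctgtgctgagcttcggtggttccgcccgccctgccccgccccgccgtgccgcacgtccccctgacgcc
Psmb3, chr11:97703184-97703433, plus strand: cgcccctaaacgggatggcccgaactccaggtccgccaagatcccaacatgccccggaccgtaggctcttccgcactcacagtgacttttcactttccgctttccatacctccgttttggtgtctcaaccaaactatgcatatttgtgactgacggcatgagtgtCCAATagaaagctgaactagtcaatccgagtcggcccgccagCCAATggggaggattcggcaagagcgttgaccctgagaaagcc
Psmb5, chr14:54617996-54618245, minus strand: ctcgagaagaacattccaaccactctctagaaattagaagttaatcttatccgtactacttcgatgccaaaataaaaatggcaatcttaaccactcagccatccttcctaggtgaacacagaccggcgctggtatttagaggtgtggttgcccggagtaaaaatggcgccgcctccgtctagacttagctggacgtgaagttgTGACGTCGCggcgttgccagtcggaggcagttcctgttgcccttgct
Psmb6, chr11:70525107-70525356, plus strand: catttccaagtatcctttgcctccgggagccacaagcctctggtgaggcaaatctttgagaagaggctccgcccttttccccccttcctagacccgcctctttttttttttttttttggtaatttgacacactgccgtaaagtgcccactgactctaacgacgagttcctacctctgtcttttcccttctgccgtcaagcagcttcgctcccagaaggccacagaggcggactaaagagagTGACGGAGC
Psmd2, chr16:20651402-20651651, plus strand: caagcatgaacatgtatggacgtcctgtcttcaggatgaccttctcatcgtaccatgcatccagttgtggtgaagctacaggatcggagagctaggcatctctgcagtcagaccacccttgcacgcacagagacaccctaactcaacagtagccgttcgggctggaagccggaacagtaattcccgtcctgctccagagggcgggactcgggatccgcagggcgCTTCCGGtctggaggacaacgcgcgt

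The antioxidant response element core began 47 bases before the start in Psmb5 and 9 bases before it in Psmb6, the CCAAT boxes 85 and 43 bases before it in Psmb3 and 196 bases before it in Psma7, and the Ets match 26 bases before it in Psmd2. Over the 29 genes the antioxidant response element core was found in 5 (17.2%), against 11.5% of all 27025 genes with a promoter in the table and 13.8% of the 5897 of those that were tested. CCAAT was found in 12 (41.4%, against 37.5% and 39.1%), the GC box GGGCGG in 17 (58.6%, against 35.4% and 63.1%) and CCGGAAG in 9 (31.0%, against 7.83% and 17.8%). A paired core of the interferon-stimulated response element was found in 3 (10.3%, against 3.46% and 3.78%), which were Psmb3, where it is not in capitals, Psmd4 and Psmd9. A match is a description of the letters in this window and shows no binding.

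After microbead injection in APOE3 mice, Psmb1, a beta subunit without catalytic activity, rose, and it was the 1 proteasome gene of 33 that passed the test. Its level was 102, 96.9 and 74.9 CPM in the APOE3 microbead libraries, against 56.7, 49.2, 42.7 and 58.8 CPM in the APOE3 sham libraries. All 3 microbead libraries lay above all 4 sham libraries. The log2 fold change was 0.80 ± 0.23 (SE; edgeR quasi-likelihood test, adjusted p = 0.0401). Among all 7605 genes tested, 5.15% were called in this comparison and 3.54% were called higher, so 1 of 33 is near the background. The call is close to the threshold: it was lost in 17 of 27 alternative settings, with DESeq2 among them (adjusted p = 0.0668). Without both APOE3 microbead 1 and 2, which leaves only APOE3 microbead 3 in its group, the log2 fold change was 0.52.

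The other core genes that stood out with unadjusted p under 0.05 in APOE3 were Psmb3, a structural beta subunit, and Psma4, an alpha subunit. Psmb3 had 47.5, 57.9 and 60.6 CPM in APOE3 microbead, against 25.8, 28.1, 42.7 and 25.2 CPM in APOE3 sham, with a log2 fold change of 0.89 ± 0.30 (adjusted p = 0.0915). Psma4 had 43.0, 37.9 and 28.5 CPM in APOE3 microbead, against 22.3, 15.8, 16.3 and 9.60 CPM in APOE3 sham, with a log2 fold change of 1.20 ± 0.42 (adjusted p = 0.0991). For both genes the microbead libraries lay above the sham libraries with no overlap, and neither passed the threshold after adjustment.

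Of the catalytic subunits, Psmb6 was the most even over the APOE3 microbead libraries. It had 90.5, 89.1 and 90.9 CPM in APOE3 microbead, against 48.1, 59.7, 75.2 and 67.2 CPM in APOE3 sham, with a log2 fold change of 0.53 ± 0.26 (adjusted p = 0.349). The groups did not overlap. Psmb5 had 58.8, 46.8 and 30.3 CPM in APOE3 microbead, against 22.3, 52.7, 12.2 and 34.8 CPM in APOE3 sham, with a log2 fold change of 0.53 ± 0.35 (adjusted p = 0.555). Its sham libraries spread over a wide range and overlapped with the microbead libraries.

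In the cap, Psmd2 and Psmd14, the enzyme that cuts ubiquitin off substrates, had the smallest p-values of the non-ATPase genes. Psmd2 had 90.5, 73.5 and 71.3 CPM in APOE3 microbead, against 34.3, 54.5, 44.7 and 58.8 CPM in APOE3 sham, a log2 fold change of 0.68 ± 0.29 (adjusted p = 0.224). Psmd14 had 29.4, 31.2 and 37.4 CPM in APOE3 microbead, against 10.3, 7.03, 30.5 and 18.0 CPM in APOE3 sham, a log2 fold change of 1.00 ± 0.42 (adjusted p = 0.230). The Psmd2 groups did not overlap, while 1 sham library reached the microbead range of Psmd14.

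By direction, 24 of the 33 genes (72.7%) had a log2 fold change above 0 in APOE3, against 48.7% of all genes tested, with a median of 0.19 against -0.02. By unadjusted p under 0.05, 5 were higher and 0 lower, where 8.44% of all genes were higher and 6.29% lower. In 6 genes the microbead libraries lay wholly above the sham libraries and in 0 wholly below, where the shares over all genes were 7.63% and 5.52%. The counts past a threshold and the counts without overlap exceed the background by few genes at most.

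In APOE4 mice the same comparison gave mostly values below 0, with 0 of 33 genes called by the edgeR test, where 0.197% of all genes were called. Limma-voom also called 0, and DESeq2 gave no adjusted p for 6 of the 33 and called 0 of the others. Of the 33, 26 had a log2 fold change below 0 (50.5% of all genes did), and the median was -0.20 against -0.00 for all genes. By unadjusted p under 0.05, 2 genes were lower and 0 higher, where 2.88% of all genes were lower and 3.62% higher. These were Psma7 and Psmb7.

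Psma7 had 56.3, 56.5 and 39.8 CPM in APOE4 microbead, against 71.8, 101, 88.9 and 104 CPM in APOE4 sham, with a log2 fold change of -0.84 ± 0.29 (adjusted p = 0.416). Psmb7 had 16.1, 6.65 and 6.92 CPM in APOE4 microbead, against 26.9, 21.5, 28.5 and 24.5 CPM in APOE4 sham, with a log2 fold change of -1.37 ± 0.58 (adjusted p = 0.654). In both genes every microbead library lay below every sham library. With Psmb1, at 58.3, 58.2 and 48.4 CPM in APOE4 microbead against 66.4, 77.8, 58.7 and 71.7 CPM in APOE4 sham, and the catalytic Psmb5, they made up the 4 genes without overlap, all lower, where 4.14% of all genes were lower and 4.97% higher without overlap. Psmb5 had 22.1, 33.2 and 31.1 CPM in APOE4 microbead, against 34.1, 44.7, 37.4 and 52.8 CPM in APOE4 sham, a log2 fold change of -0.54 ± 0.37 (adjusted p = 0.897). The gaps of Psmb1 (58.34 against 58.69 CPM) and Psmb5 (33.24 against 34.10 CPM) were narrower than 1 read. In the microbead libraries concerned, APOE4 microbead 1 and 2, 1 read made 2.01 and 1.66 CPM.

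**Figure D2:**
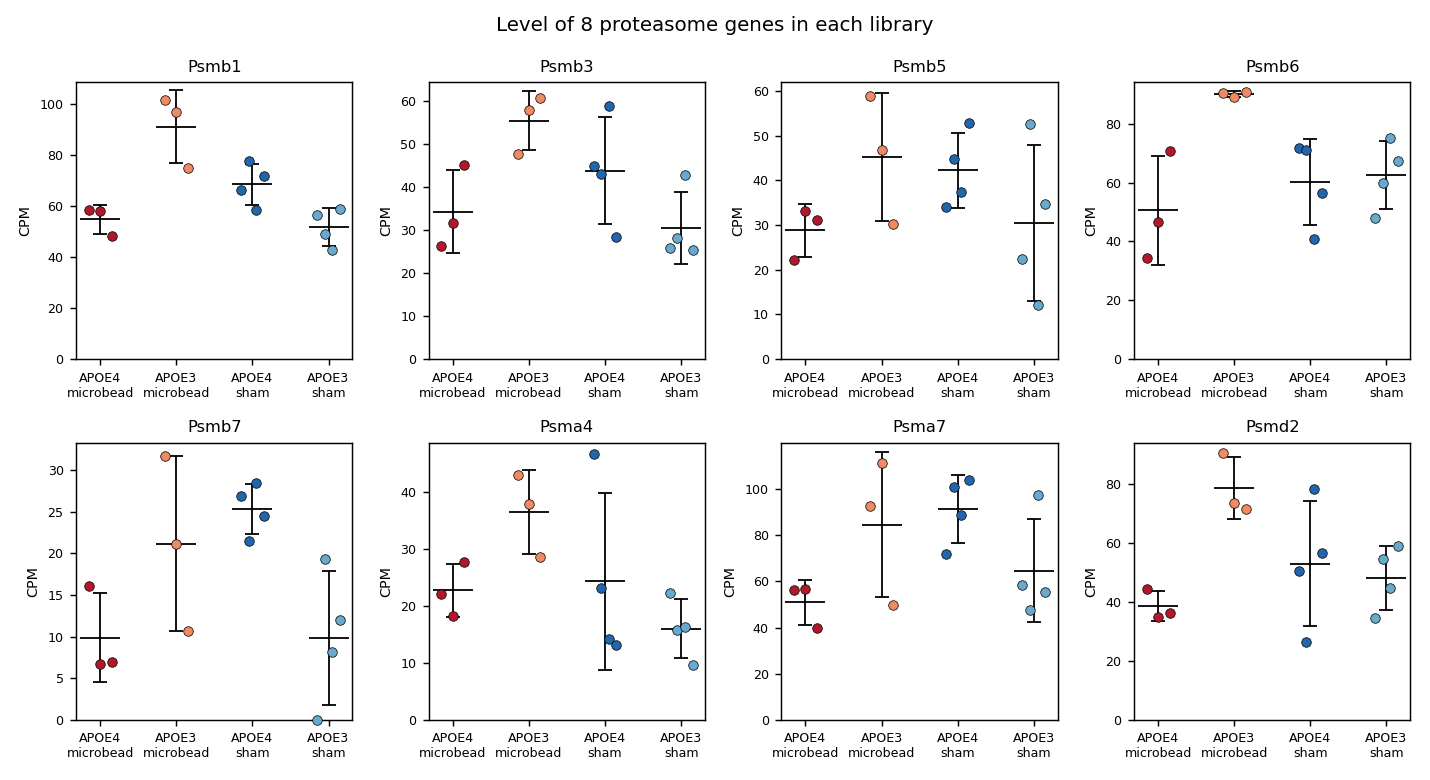
CPM of 8 proteasome genes in each library (points), by group, with the group mean and SD (black bars). Psmb1, Psmb3, Psma4 and Psmd2 lie higher in all 3 APOE3 microbead libraries than in the APOE3 sham libraries, and Psma7, Psmb7, Psmb1 and Psmb5 lie lower in all 3 APOE4 microbead libraries than in the APOE4 sham libraries. For Psmb1 and Psmb5 in APOE4 the gap is narrower than 1 read.

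The difference between genotypes in the microbead effect was tested as an interaction, in which a value below 0 means that the log2 effect of microbeads was lower in APOE4 than in APOE3. By the edgeR test 0 of the 33 genes were called, where 0.092% of all genes were called. Limma-voom also called 0, and DESeq2 gave no adjusted p for 31 of the 33 and called 0 of the others. By unadjusted p under 0.05, 7 were lower and 0 higher, where 4.68% of all genes were lower and 3.48% higher. The 7 were Psmb1 (-1.12 ± 0.34, adjusted p = 0.237), Psma7 (-1.26 ± 0.40, adjusted p = 0.271), Psmb7 (-2.42 ± 0.81, adjusted p = 0.298), Psmb3 (-1.24 ± 0.44), Psmd2 (-1.14 ± 0.42), Psma4 (-1.30 ± 0.60) and Psmb5 (-1.07 ± 0.51), each as a log2 difference with its SE. Without both APOE3 microbead 1 and 2, Psma7 was at -0.48, Psmb7 at -1.45 and Psmb5 at -0.49. Psmb7 was at -3.64 on the log2(TPM + 0.1) scale, and Psma4 was at -0.78 without APOE4 sham 1. Of these, 6 belong to the 20S core and 4 to its beta type. The median interaction of the 33 genes was -0.43, against 0.01 over all genes, and 25 were below 0 (49.4% of all genes were). The interaction and both microbead comparisons share libraries, so they are not separate evidence.

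Psmb7 illustrates how few reads carry some of these values. It had 0 reads in the library APOE3 sham 1, which allows up to 5.15 CPM at a floor of 3 reads, and 19.3, 8.13 and 12.0 CPM in the other APOE3 sham libraries, against 31.7, 21.2 and 10.7 CPM in APOE3 microbead. Its log2 fold change in APOE3 was 1.04 ± 0.56 (adjusted p = 0.414). In APOE4 against APOE3 after sham it was 1.32 ± 0.52 (adjusted p = 0.962), the 1 proteasome gene with unadjusted p under 0.05 in that comparison, where 2.43% of all genes were higher and 1.97% lower at that p. Floors of this kind cover counting error only.

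**Figure D3:**
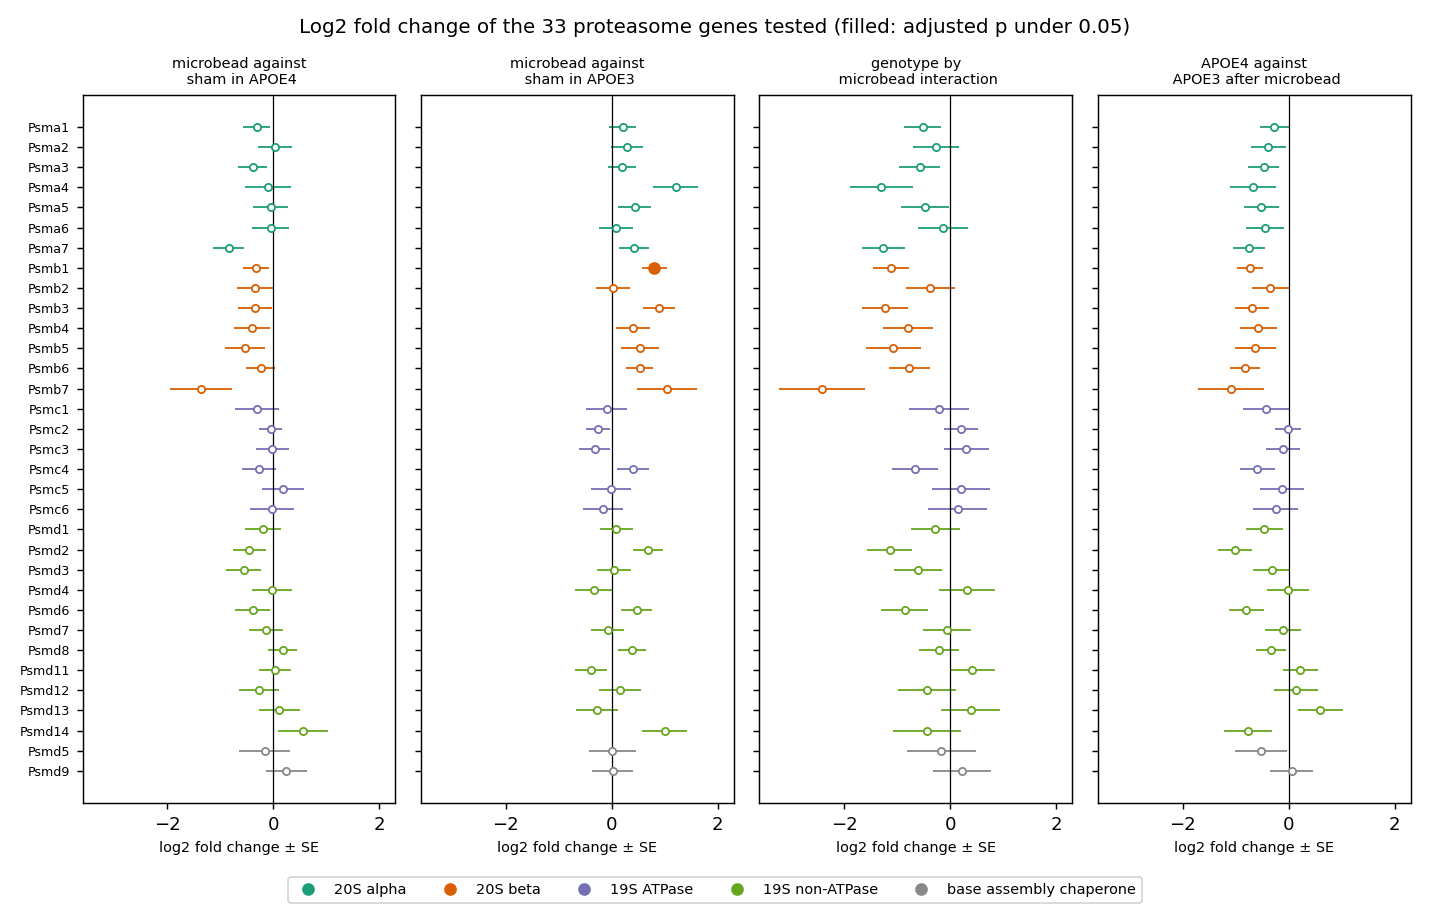
Log2 fold change ± SE (horizontal axis) of the 33 proteasome genes tested, ordered and coloured by part of the proteasome, in 4 comparisons. All 7 beta genes lie left of 0 in APOE4 and right of 0 in APOE3, where Psmb2 at 0.03 falls to -0.04 with length offsets. Psmb1 in APOE3 is the 1 filled point, with an adjusted p of 0.0401.

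The parts of the proteasome are described one by one. In the 20S beta genes, all 7 tested had a log2 fold change below 0 in APOE4 (median -0.35) and all 7 above 0 in APOE3 (median 0.53), and the interaction was below 0 in all 7 (median -1.07). In the 20S alpha genes, 6 of 7 were below 0 in APOE4 (median -0.10), 7 of 7 above 0 in APOE3 (median 0.29) and 7 of 7 below 0 in the interaction (median -0.52). The beta medians kept their sign in every alternative setting of the 3 comparisons. Single genes near 0 did not: Psmb2, at 0.03 in APOE3, was at -0.04 with length offsets, and without both APOE3 microbead 1 and 2 only 5 of 7 beta genes were above 0 in APOE3 (median 0.19). The alpha median in APOE3 turned to -0.15 without those libraries. Of the 19S ATPases, 5 of 6 were below 0 in APOE4 (median -0.04) and 5 of 6 below 0 in APOE3 (median -0.13), with a median interaction of 0.17, but on the log2(TPM + 1) scale, which is not TMM-scaled, the medians were -0.56 in APOE4, 0.07 in APOE3 and -0.61 in the interaction, whose median was below 0 in 8 of 26 settings. No difference between these parts was tested, since they are small lists described with results known.

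Summed over its genes, the 20S beta type had 229, 228 and 275 CPM in APOE4 microbead and 414, 409 and 342 CPM in APOE3 microbead, against 337, 326, 327 and 308 CPM in APOE4 sham and 254, 264, 280 and 269 CPM in APOE3 sham. Within each genotype the microbead and sham sums did not overlap, in APOE4 with microbead lower and in APOE3 with microbead higher. The genotypes already differed after sham, where the APOE4 sums lay wholly above the APOE3 sums. After microbeads the APOE4 sums lay wholly below the APOE3 sums, and they overlapped with those of APOE3 sham. The 20S alpha sum was 302, 304 and 294 CPM in APOE4 microbead and 430, 491 and 346 CPM in APOE3 microbead, against 373, 404, 365 and 376 CPM in APOE4 sham and 330, 330, 427 and 277 CPM in APOE3 sham. It did not overlap in APOE4 and overlapped in APOE3.

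Within each genotype, the cap sums of microbead and sham libraries overlapped. The ATPases summed to 239, 214 and 292 CPM in APOE4 microbead and 333, 269 and 257 CPM in APOE3 microbead, against 280, 260, 261 and 240 CPM in APOE4 sham and 290, 336, 293 and 315 CPM in APOE3 sham. The non-ATPase subunits summed to 372, 369 and 425 CPM in APOE4 microbead and 468, 497 and 455 CPM in APOE3 microbead, against 409, 388, 493 and 423 CPM in APOE4 sham and 369, 365, 476 and 493 CPM in APOE3 sham. Between genotypes, the ATPase sums of APOE4 sham lay wholly below those of APOE3 sham and the non-ATPase sums of APOE4 microbead wholly below those of APOE3 microbead. In the non-ATPase genes 7 of 11 were above 0 in APOE3 and 7 of 11 below 0 in APOE4. Of the single ATPases, Psmc4 had the smallest unadjusted p in both microbead comparisons, with log2 fold changes of -0.27 ± 0.32 in APOE4 (adjusted p = 0.953) and 0.40 ± 0.30 in APOE3 (adjusted p = 0.621). Psmc2 had -0.05 ± 0.23 in APOE4 and -0.26 ± 0.22 in APOE3 (adjusted p = 0.996 and 0.691). The chaperones of cap assembly were near 0 in APOE3, with 0.02 ± 0.38 for Psmd9 and 0.01 ± 0.44 for Psmd5 (adjusted p = 0.998 for both).

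**Figure D4:**
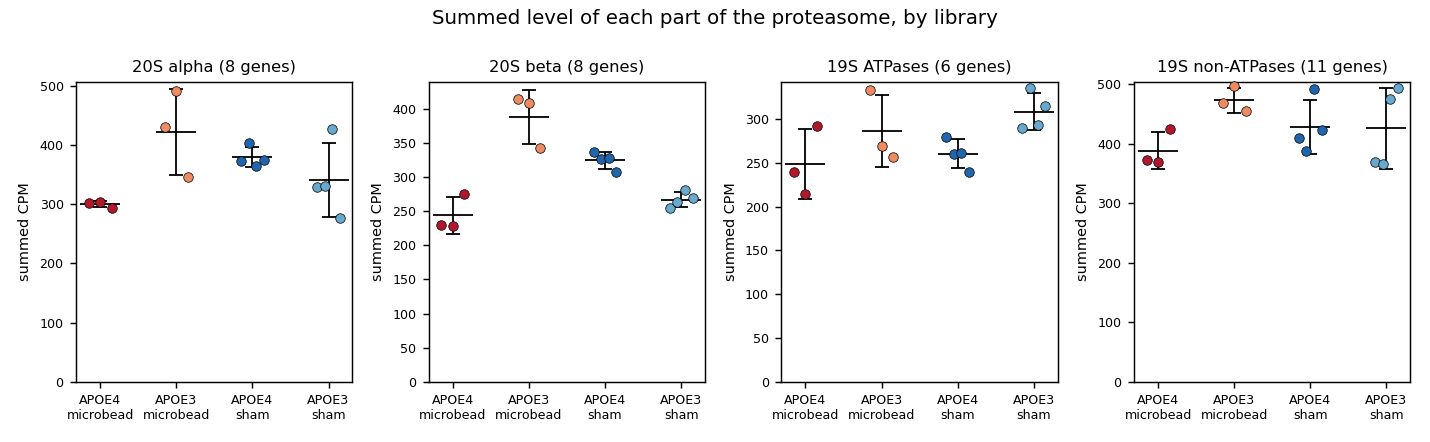
Summed CPM of the 20S alpha, 20S beta, 19S ATPase and 19S non-ATPase genes in each library (points), by group, with the group mean and SD (black bars). The beta sums of APOE4 microbead (228 to 275) lie below those of APOE4 sham (308 to 337), and those of APOE3 microbead (342 to 414) above those of APOE3 sham (254 to 280).

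A ratio of reads within a library does not depend on how libraries are scaled to each other. The reads of the 7 tested beta genes over those of the 6 ATPases gave 0.941, 1.02 and 0.923 in APOE4 microbead and 1.23, 1.49 and 1.33 in APOE3 microbead, against 1.15, 1.23, 1.22 and 1.28 in APOE4 sham and 0.817, 0.754, 0.931 and 0.840 in APOE3 sham. On reads, the microbead and sham libraries did not overlap in either genotype, and the order was opposite in the 2 genotypes. In the sham libraries the ratio of reads was higher in all 4 APOE4 than in all 4 APOE3 libraries. Reads are not corrected for transcript length. With the same genes summed in TPM, microbead and sham libraries overlapped in APOE4, and the sham groups overlapped between genotypes. In APOE3 the microbead libraries stayed above the sham libraries on that scale. The ratio of reads was formed after the values of both parts had been seen, so it has no test. It rests on 112 to 360 beta reads and 119 to 262 ATPase reads per library. Leaving out any 1 of the 7 beta genes kept the microbead and sham libraries apart within each genotype. The ATPases were not left out in turn. Psmc2 had the most reads of them, 773 over all libraries, of which 61.2% lay on retained-intron transcripts.

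Other denominators gave less separation. The beta reads over the non-ATPase reads were 0.605, 0.595 and 0.634 in APOE4 microbead and 0.874, 0.807 and 0.753 in APOE3 microbead, against 0.785, 0.825, 0.650 and 0.728 in APOE4 sham and 0.642, 0.692, 0.573 and 0.535 in APOE3 sham, again without overlap of microbead and sham within a genotype. Over the reads of the tested alpha genes the same ratio was 0.721 to 0.918 in APOE4 microbead and 0.820 to 0.995 in APOE3 microbead, against 0.804 to 0.887 in APOE4 sham and 0.638 to 0.957 in APOE3 sham, with overlap in both genotypes.

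**Figure D5:**
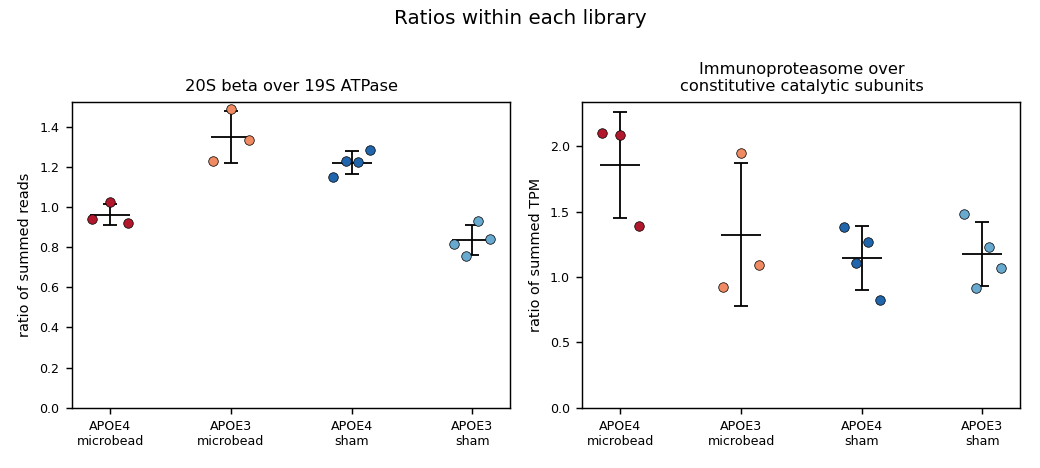
Within-library ratios by group (points are libraries, black bars the mean and SD): reads of the 7 tested 20S beta genes over reads of the 6 ATPases, and summed TPM of the immunoproteasome genes over that of Psmb5, Psmb6 and Psmb7. The first, on reads, separates microbead from sham in both genotypes, in opposite orders. With its genes summed in TPM instead, which is not drawn, the APOE4 groups overlap. In the second the APOE4 microbead libraries lie above APOE4 sham, 1 of them at 1.390 against 1.386, while the APOE3 groups overlap.

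Among the mice with microbeads, the proteasome genes were mostly lower in APOE4 than in APOE3, with 0 of 33 called by the edgeR test, where 0.579% of all genes were called. Limma-voom also called 0, and DESeq2 gave no adjusted p for 22 of the 33 and called 0 of the others. Of the 33, 29 had a log2 fold change below 0 (50.3% of all genes did) and the median was -0.45 against -0.00 over all genes. By unadjusted p under 0.05, 6 were lower and 0 higher, where 5.19% of all genes were lower and 4.55% higher. In 9 genes the APOE4 microbead libraries lay wholly below the APOE3 microbead libraries and in 0 wholly above, where the shares over all genes were 7.28% and 7.19%.

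Psmd2 had the smallest p of them, at 44.3, 34.9 and 36.3 CPM in APOE4 microbead against 90.5, 73.5 and 71.3 CPM in APOE3 microbead, a log2 fold change of -1.02 ± 0.32 (adjusted p = 0.178). Psmb6 had 34.2, 46.5 and 70.9 CPM in APOE4 microbead against 90.5, 89.1 and 90.9 CPM in APOE3 microbead, a log2 fold change of -0.82 ± 0.29 (adjusted p = 0.252). Psmb1 had a log2 fold change of -0.73 ± 0.25 (adjusted p = 0.250). All 3 genes were lower in every APOE4 than in every APOE3 library after microbeads. Psma7, at -0.75 ± 0.31 (adjusted p = 0.382), overlapped between the groups, as APOE3 microbead 3 had 49.9 CPM. Without APOE3 microbead 1 and 2, which had 92.8 and 111 CPM, its log2 fold change was 0.03.

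The summed level of all 36 genes followed the same order. It was 1209, 1162 and 1324 CPM in APOE4 microbead and 1690, 1725 and 1471 CPM in APOE3 microbead, against 1463, 1416, 1503 and 1383 CPM in APOE4 sham and 1281, 1348, 1518 and 1445 CPM in APOE3 sham. The APOE4 microbead sums lay below those of every other group except for APOE3 sham, with which they overlapped. The APOE3 microbead sums overlapped with both sham groups through the library APOE3 microbead 3, which also had the lowest monocyte markers of its group. A link between the sums and these markers was not tested. The highest sum was that of APOE3 microbead 2, at 767 CPM of markers, while APOE3 microbead 1 had 1512 CPM of them.

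After sham injection the genotypes were close in most genes. Of the 33, 17 were below 0, the median log2 fold change of APOE4 against APOE3 was -0.04 (-0.00 over all genes), and 0 were called by the edgeR test, by DESeq2 or by limma-voom, where 0.0131% of all genes were called. Over all genes 50.1% were below 0. In 1 gene, Psmb7, the APOE4 sham libraries lay wholly above the APOE3 sham libraries and in 0 wholly below, where the shares over all genes were 2.16% and 1.38%. The median turned to 0.14 when libraries were scaled by their totals and to 0.31 on the log2(TPM + 1) scale. The beta genes had 6 of 7 above 0 and a median of 0.39, which stayed above 0 in every setting, while 5 of 6 ATPases were below 0 with a median of -0.28, which turned to 0.08 on the log2(TPM + 1) scale. The smallest p among the ATPases was that of Psmc3, at -0.41 ± 0.27, and among the non-ATPase subunits that of Psmd12, of the lid, at 0.58 ± 0.36 (adjusted p = 0.962 for both).

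The replacement catalytic subunits, which the rule left out, were tested in the same fit. Psmb8 rose in APOE3: it had 104, 203 and 111 CPM in APOE3 microbead, against 75.6, 73.8, 75.2 and 90.04 CPM in APOE3 sham, a log2 fold change of 0.84 ± 0.25 (adjusted p = 0.0496). The call lies at the threshold and was lost in 22 of 27 alternative settings. Without APOE3 microbead 2, the library at 203 CPM, the log2 fold change was 0.44 (adjusted p = 0.532). Psmb9 had a log2 fold change of 0.57 ± 0.32 (adjusted p = 0.452) and Psmb10 of 0.73 ± 0.36 (adjusted p = 0.339) in APOE3. In APOE4 the values of the 3 were 0.17 ± 0.26 for Psmb8, 0.24 ± 0.34 for Psmb9 and -0.08 ± 0.37 for Psmb10 (adjusted p = 0.973, 0.965 and 0.996), and none of the 3 interactions was called (smallest adjusted p = 0.659).

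Set against their constitutive counterparts within each library, the summed TPM of Psmb8, Psmb9 and Psmb10 over that of Psmb5, Psmb6 and Psmb7 was 2.10, 2.09 and 1.390 in APOE4 microbead and 0.928, 1.95 and 1.10 in APOE3 microbead, against 1.386, 1.11, 1.27 and 0.823 in APOE4 sham and 1.49, 0.919, 1.23 and 1.07 in APOE3 sham. The APOE4 microbead libraries lay above the APOE4 sham libraries, the lowest of them at 1.390 against the highest sham library at 1.386. The immunoproteasome sums themselves overlapped in APOE4, at 40.9 to 61.7 TPM after microbeads and 53.4 to 65.6 TPM after sham. The sums of Psmb5, Psmb6 and Psmb7 were 19.5 to 41.1 TPM after microbeads, below the 47.3 to 69.1 TPM after sham. The higher ratio thus repeats the lower sum of those genes, and it was not tested. In APOE3 the microbead and sham ranges overlapped.

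The rest of the pathway, in 7 lists with the immunoproteasome, gave no call in any comparison outside Psmb8. Of the 5 activator and inhibitor genes tested, all 5 were above 0 in APOE3 and 2 of 5 in APOE4, with Psme2, of the interferon-induced activator, at 0.48 ± 0.30 in APOE3 (adjusted p = 0.532). Of 8 other subunits and bound enzymes, Sem1, a small subunit of the lid, had an interaction of -1.51 ± 0.52 (adjusted p = 0.322), and was at 18.1, 23.3 and 25.9 CPM in APOE4 microbead and 43.0, 59.0 and 25.0 CPM in APOE3 microbead, against 41.3, 33.1, 30.2 and 24.5 CPM in APOE4 sham and 27.5, 10.5, 22.4 and 25.2 CPM in APOE3 sham. Its APOE4 microbead and sham libraries overlapped. In the same list the ubiquitin receptor Adrm1 had -1.49 ± 0.53 (adjusted p = 0.477) and Ecpas, a proteasome adaptor, -0.99 ± 0.36 (adjusted p = 0.468) in APOE4. Both were lower in every microbead than in every sham library of that genotype.

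Of the 11 transcription factor and processing genes tested, which include Nfe2l1 and Nfe2l2, the genes of Nrf1 and Nrf2, 7 were above 0 in APOE3 and 6 in APOE4. Nfe2l2 had 0.34 ± 0.24 in APOE3 (adjusted p = 0.587), and Stat3, a factor of cytokine signalling, 0.76 ± 0.25 (adjusted p = 0.0736). Of the 5 ubiquitin and activating enzyme genes, Rps27a, which encodes ubiquitin fused to a ribosomal protein, had 0.68 ± 0.26 in APOE3 (adjusted p = 0.178), and the polyubiquitin gene Ubb -0.55 ± 0.25 in APOE4 (adjusted p = 0.712). All 7 shuttle factor and segregase genes tested, of 11 listed, were above 0 in APOE3 (median 0.27) and below 0 in APOE4 (median -0.20). Over all genes 48.7% were above 0 in APOE3 and 50.5% below 0 in APOE4. The smallest adjusted p of this list was 0.662 in APOE3 and 0.946 in APOE4. Some values were near 0, such as Nploc4 at 0.01 in APOE3 and Vcp at -0.02 in APOE4. Ddi2 and Vcp are also in the transcription factor and processing list. Pomp, the chaperone of 20S assembly and the 1 gene tested of its list of 5, had -0.30 ± 0.25 in APOE3 (adjusted p = 0.679).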

How the data were processed

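The deposited files hold, per the file headers, estimated counts and effective lengths per transcript for each of the 14 libraries, and 1 series table of TPM per gene made by the authors. Per the submitters' processing notes, Salmon 1.4.0, the mm10 build, R 4.0.3 and DESeq2 1.30.1 were used; the annotation is not given in the sources used here. Transcripts were assigned to genes with the GENCODE M21 annotation (GRCm38, 115945 of 116945 transcripts), and the estimated counts were summed per gene and rounded. As a check of the labels, TPM values were computed again per library; 99.2% to 99.4% of genes came within 1% of the library's own column in the deposited TPM table, and at most 2.11% within 1% of another library's.

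Of 28164 genes with a read, 7605 passed edgeR's filterByExpr, applied with the 4 groups at a count of 10 and a total of 15. The main test was the robust quasi-likelihood test of edgeR 4.0.16 (R 4.3.3) after TMM scaling, with a mean for each of the 4 groups fitted to the 14 libraries at once, at a common biological coefficient of variation of 0.275. All tests are two-sided. An adjusted p comes, where no other tool is named, from that test, adjusted by Benjamini-Hochberg over the 7605 genes, and a gene was called below 0.05. Median values and counts over lists are descriptions with no test.

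Alternatives were DESeq2 1.42.0, limma-voom and limma 3.58.1 on log2(TPM + 1) and log2(TPM + 0.1), other scalings and filters, length offsets, a replicate block, only the libraries compared, leaving out each library, and, chosen after seeing the data, leaving out APOE3 microbead 1 and 2 together and counting protein-coding transcripts alone.

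Genes named with values were those called; in each part of the proteasome the highest and lowest by mean TPM, the 2 with the smallest unadjusted p in the APOE3 microbead comparison and the 1 with the smallest in each other comparison; Psmb5, Psmb6 and Psmb7; and up to 4 per further list with the smallest unadjusted p. Other genes named beside a count were chosen after their values were seen. The proteasome genes and all lists were chosen with earlier results of these data known. Promoters are from RefSeq, and motifs were searched on both strands of the 250 bases before the start.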

Additional observations from a re-analysis of the deposited data

Results flagged for a closer look

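In groups of 4, single libraries stood apart from the other 3 by more than Dixon's 95% critical value in 7 of 82 group tests (the 33 tested proteasome genes, the 3 immunoproteasome genes and 5 summed levels, in both sham groups), where chance flags about 1 in 20 groups, or 4.1 here. Groups of 3 were not examined.

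In APOE4 sham, the alpha subunit gene Psma5 had 48.03 CPM in library 2, against 26.42 to 28.46 CPM in the others, and Psmb8 had 62.27 CPM in library 4, against 102.7 to 109.5 CPM. In APOE3 sham, library 4 stood apart in 3 genes. The ATPase gene Psmc2 had 81.63 CPM there, against 113.8 to 116.8 CPM in the others. The chaperone gene Psmd5 had 48.02 CPM there, against 17.17 to 19.33 CPM, and Psmb8 had 90.04 CPM, against 73.8 to 75.56 CPM. Also in APOE3 sham, Psmb3 had 42.68 CPM in library 3, against 25.21 to 28.11 CPM, and the lid gene Psmd6 had 22.33 CPM in library 1, against 34.81 to 36.59 CPM. Without APOE3 sham 3, Psmb3 passed the threshold in the APOE3 microbead comparison (edgeR adjusted p = 0.0497).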

How the results depend on the processing

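Over 27 alternative settings (26 for the interaction, which could not be run with only the libraries compared), 30 gene results were followed. They were those with an unadjusted p under 0.05 or no overlap between groups, Psmb8 in APOE3 among them. They gave 790 values, of which 1 changed sign, and 1 gene was newly called. In APOE3 the Psmb1 call was lost in 17 settings and the Psmb8 call in 22. The results were picked on the same libraries that the settings fit again, so their kept signs are not separate evidence. Of all proteasome genes tested, 19 to 26 were above 0 in APOE3, and the beta genes were all above 0 there in 20 of 27 settings. Psma7 in APOE4 against APOE3 after microbeads turned to 0.0346 without both APOE3 microbead 1 and 2. Low read numbers limit single genes, and scaling by library totals moves the median of all genes by -0.232 in APOE4, -0.205 in the interaction and 0.162 between sham groups, which moves the medians of the proteasome genes with it.

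Genes called in APOE3 (392) numbered 149 with library totals, 223 with length offsets, 227 with only the libraries compared, 37, 10 and 12 on log2(TPM + 1), log2(TPM + 0.1) and log2(TPM + 1) unfiltered, 37 without both APOE3 microbead 1 and 2 and 253 on protein-coding transcripts; leaving out 1 library gave 225 to 478. Proteasome genes called in APOE3 (1) fell to 0 with DESeq2, library totals, no filter, length offsets, only the libraries compared, each TPM scale and without both libraries, and were 0 to 1 on leaving out 1 library. The lost call is Psmb1, whose adjusted p ran over 0.0251 to 0.880, and it was lost without APOE3 microbead 1 (0.148), APOE3 microbead 2 (0.156), APOE4 microbead 2 (0.0510), APOE4 sham 4 (0.0542), and APOE3 sham 1, 2 and 3 (0.0632, 0.0986 and 0.105). The median in APOE3 (0.19) was 0.32 on log2(TPM + 0.1) and 0.32 on protein-coding transcripts, and 0.10 to 0.33 on leaving out 1 library.

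Genes called in APOE4 (15) numbered 34 with DESeq2, 3 with library totals, 53 with no filter, 5 with length offsets, 44 with only the libraries compared, 3, 4 and 0 on the 3 TPM scales, 26 without both libraries, 2 on protein-coding transcripts and 2 to 17 on leaving out 1. The median (-0.20) was -0.41 with library totals and -0.56, -0.62 and -0.54 on the TPM scales, and -0.28 to -0.13 on leaving out 1. Genes called in the interaction (7) numbered 57, 2, 29 and 0 with DESeq2, library totals, no filter and length offsets, 1, 0 and 0 on the TPM scales, 1 without both, 0 on protein-coding transcripts and 0 to 30 on leaving out 1. Its median (-0.43) was -0.61 with library totals, -0.75, -0.85 and -0.74 on the TPM scales and -0.51 to -0.23 on leaving out 1.

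Genes called between genotypes after microbeads (44) numbered 73 with DESeq2, 14 with library totals, 111 with no filter, 21 with length offsets, 7, 2 and 1 on the TPM scales, 2 without both, 26 on protein-coding transcripts and 11 to 121 on leaving out 1. The median (-0.45) was -0.58 with length offsets, -0.60, -0.70 and -0.58 on the TPM scales, -0.21 without both and -0.54 to -0.36 on leaving out 1. After sham, genes called (1) were 0 with library totals, without genes over 2% of reads, with limma-voom, length offsets, only the libraries compared, without both and on protein-coding transcripts, 12 with no filter, 3 on each TPM scale and 0 to 1 on leaving out 1. The median (-0.04) was 0.14 with library totals, 0.31, 0.35 and 0.29 on the TPM scales and -0.12 to 0.07 on leaving out 1. For these changes the cause was not tested.

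Over 19 same-numbered pairs the correlation of deviations from the group means was -0.144 to 0.0985, against -0.206 to 0.255 over the other pairs. Same-numbered libraries thus did not resemble each other more than others did. This cannot exclude that the numbers pair the samples. With the replicate number as a block, 293 genes were called in APOE3, 5 in APOE4, 3 in the interaction, 33 between genotypes after microbeads and 0 after sham, and 0 proteasome genes (Psmb1 adjusted p = 0.0533).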
